A study of Gallus gallus with 6 samples.

Results

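The genes described here are 10 transcription factors of hair cell specification and early differentiation, ATOH1, POU4F3, GFI1, BARHL1, NHLH1, LHX3, INSM1, HES6, NEUROD1 and RFX3, taken by name from a table of 25619 genes in chick (Gallus gallus) auditory epithelium. All 10 names had 1 row each. The table came from 6 bulk RNA-seq libraries of the basilar papilla, the auditory sensory epithelium of birds, peeled off cochlear ducts that had been kept as explants. The ducts were taken from chicks at post-hatch day 1, no strain or genotype is given in the sources used here, and all 6 libraries, controls included, came from explants exposed for 48 h to streptomycin (SM), an antibiotic toxic to hair cells, which per the labels were all lost. In the titles all libraries carry day 3, with 3 SM controls and 3 that also received BQ788, a small molecule inhibitor of the endothelin receptor type B, whose dose is not given in the sources used here. The explant holds what the duct still has after SM, and whether a library pools several ducts or animals is not given in the sources used here. Without a library from ducts not exposed to SM, the factors could be compared between the 2 groups but not followed from an intact epithelium.

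In birds, supporting cells that survive the loss of hair cells can turn into new hair cells, either directly or after dividing. The switch begins with ATOH1, a basic helix-loop-helix (bHLH) activator that pairs with E proteins such as TCF3 and is held in check by ID proteins, which bind E proteins, and by HES and HEY repressors, which act under Notch. In mouse, POU4F3, GFI1, BARHL1 and LHX3 follow ATOH1 and carry the new cell through differentiation and survival. The level of ATOH1 beside those of the later factors therefore shows which of these transcripts the epithelium held, averaged over all its cells.

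Recovered from the deposited FPKM values (fragments per kilobase of gene length, scaled to a total for each library), reads per library numbered from 15438305 to 17375656. The limma test covered the 11857 genes whose 6 libraries averaged 1 FPKM or more, and 355 of them (2.99%) passed an adjusted p of 0.05. BQ788 replicate 1 stood apart from the other BQ788 libraries. Its root mean square difference from them was 0.341 and 0.422 on the log2(FPKM + 1) scale, against 0.234 between BQ788 replicates 2 and 3 and 0.209 to 0.282 among the controls. The summed level of 7 mesenchyme markers was 299.2 FPKM in that library and 112.7 and 151.7 FPKM in the other BQ788 libraries, with 177.6 to 239.3 FPKM in the controls. Separate animals or cultures are not stated for the libraries, and the p-values therefore reflect the spread between these samples alone. Supporting cell markers of the labelled tissue were present, with TECTB at 1558.5 to 2712.4 FPKM and SOX2 at 29.3 to 61.0 FPKM, and of 6 such markers FGFR3 fell (log2 fold change -0.39, limma adjusted p = 0.0415). LFNG was higher in every BQ788 library than in any control but did not pass (0.27, limma adjusted p = 0.0516). TECTA (-0.62, limma adjusted p = 0.0591) and SOX9 (-0.35, limma adjusted p = 0.103) were lower in every one and did not pass, and TECTB and SOX2 overlapped. Among hair cell markers CALB2 and MYO6 were between 60.7 and 92.8 FPKM and OTOF at 22.9 to 38.7 FPKM. ESPN was at 8.03 to 15.6 FPKM, MYO7A at 4.64 to 9.9 FPKM and SLC17A8 at 4.23 to 7.39 FPKM. Of genes of mechanotransduction LHFPL5 was at 9.94 to 17.8 FPKM, CIB2 at 7.28 to 8.70 FPKM and TMC2 at 1.86 to 4.37 FPKM. TMC1 was at 0.535 to 0.929 FPKM, CDH23 at 0.366 to 1.39 FPKM and PCDH15 at 0.433 to 0.93 FPKM. BQ788 values of ESPN, MYO7A, SLC17A8, LHFPL5 and TMC2 lay below all controls, a pattern shown by 14.1% of all genes tested. So did those of CDH23 and PCDH15, which that share does not cover. Those of CALB2, MYO6, OTOF, CIB2 and TMC1 overlapped the controls. TMC1, CDH23 and PCDH15 averaged below 1 FPKM and were not among the genes tested. None of the other hair cell and mechanotransduction genes named here passed in limma.

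ATOH1 stood far above the other 9 factors in every library. It was at 158.0, 161.7 and 163.1 FPKM in SM control replicates 1, 2 and 3 and at 176.4, 150.6 and 134.3 FPKM in BQ788 replicates 1, 2 and 3. The controls lay within 1.03-fold of each other, and the BQ788 libraries spread on both sides of them over 1.31-fold. Between 97.8% and 98.6% of the genes detected in a library were below it. Of 1111 rows that the authors assigned to a transcription factor family, ATOH1 ranked between 10 and 16 in the 6 libraries, and in the bHLH family of 98 rows it ranked 4 or 5. By mean level over the 6 libraries the bHLH genes above it were ID2 at 505.4 FPKM, ID3 at 505.2 FPKM and HEY1 at 346.9 FPKM, all 3 of which encode proteins that oppose bHLH activators. The reads on ATOH1, 3206 to 4817 per library, carry a counting error of at most 1.77%.

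The factor next in mean level, GFI1, was 7.36 to 22.3 times lower than ATOH1 over the 6 libraries. In the controls the order of mean levels was GFI1 at 17.3 ± 4.24 FPKM (mean ± SD over 3 libraries, as for all such values), NHLH1 at 12.2 ± 1.72, HES6 at 10 ± 0.553, INSM1 at 9.42 ± 0.620, LHX3 at 7.77 ± 2.48, BARHL1 at 4.55 ± 1.29, RFX3 at 3.41 ± 0.171, POU4F3 at 1.97 ± 0.380 and NEUROD1 at 0.435 ± 0.0797 FPKM. The neighbours NHLH1 and HES6, HES6 and INSM1, INSM1 and LHX3, and BARHL1 and RFX3 overlapped in their ranges over the controls. Within each control library NHLH1 was above HES6, HES6 above INSM1 and BARHL1 above RFX3. These gaps could be narrow, as for NHLH1 and HES6 in replicate 2 (10.3 against 10.1 FPKM). INSM1 was above LHX3 in replicates 1 and 2 and below it in replicate 3. Without overlap of these ranges, GFI1 lay above NHLH1, RFX3 above POU4F3 and POU4F3 above NEUROD1, and LHX3 above BARHL1 by a narrow margin (6.13 against 5.99 FPKM).

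With BQ788 the order of the 10 changed at NHLH1, HES6, INSM1, BARHL1 and RFX3, whose ranks did not overlap between the groups. NHLH1 was the 3rd of the 10 in each control library and the 5th in each BQ788 library, behind HES6 and INSM1. BARHL1 was the 7th in each control and the 8th in each BQ788 library, where RFX3 stood above it. HES6 was 4th or 5th in the controls and 2nd or 3rd with BQ788, and INSM1 5th or 6th and 2nd or 4th. RFX3 was 8th in the controls and 6th or 7th with BQ788. Ranks depend on one another, and the mean levels of HES6 and INSM1 were not higher with BQ788. GFI1 was 2nd in the controls and 2nd to 4th with BQ788, while ATOH1, POU4F3 and NEUROD1 were 1st, 9th and 10th in all 6 libraries. As levels, GFI1 averaged 10.9 ± 3.62, HES6 9.20 ± 1.08, INSM1 8.19 ± 1.13, NHLH1 6.63 ± 0.584, LHX3 4.67 ± 1.49, RFX3 3.52 ± 0.225, BARHL1 2.81 ± 0.191, POU4F3 1.36 ± 0.0924 and NEUROD1 0.479 ± 0.209 FPKM with BQ788.

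**Figure D1:**
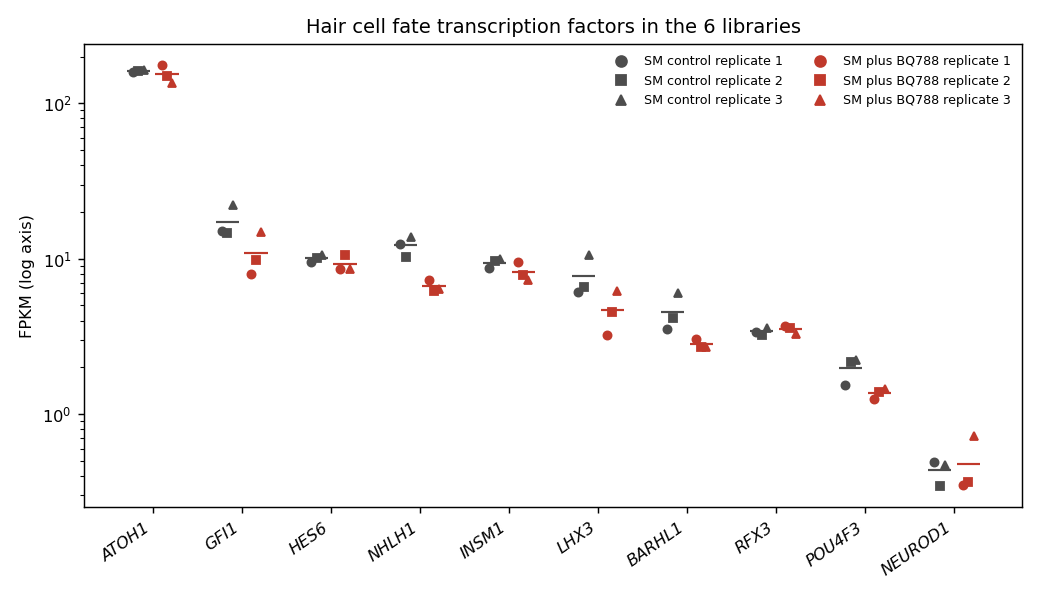
FPKM on a log axis for the 10 transcription factors, ordered by mean level. Each point is 1 library (circle, square and triangle for replicates 1, 2 and 3), grey for SM control and red for SM plus BQ788, and bars are group means. ATOH1 sits at 134.3 to 176.4 FPKM in all 6 libraries, and NHLH1, BARHL1 and POU4F3 are the factors whose red points all lie below the grey ones.

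The gap between ATOH1 and the factors that follow it was widest for POU4F3, the POU-homeodomain factor of hair cell differentiation and survival, among the genes tested. Per length, ATOH1 was 102.8, 75.1 and 73.1 times the level of POU4F3 in the controls and 140.1, 108.8 and 93.2 times with BQ788. These group ranges overlap, since control replicate 1 exceeds BQ788 replicate 3. For BARHL1 the ratio was 44.9, 39.1 and 27.2 in the controls and 58.2, 55.9 and 49.6 with BQ788, and for NHLH1 it was 12.6, 15.6 and 11.9 against 24.2, 24.4 and 20.9. These 2 ratios did not overlap between the groups, nor did that of INSM1, which moved from 16.5 to 18.1 in the controls to 18.5 to 19.2 with BQ788. The INSM1 gap, 18.1 against 18.5, is within the counting error of its reads, 5.18% to 6.31%. The ratios of the other 6 factors overlapped. Of all other genes tested, 7.71% had a ratio that was higher in every BQ788 library than in any control, and the 3 ratios share the ATOH1 values. ATOH1 made up 67.3% to 72.5% of the summed FPKM of the 10 genes in the controls and 72.3% to 79.7% with BQ788, where the other 9 together summed to 60.7, 61.2 and 79.3 FPKM and to 44.8, 46.8 and 51.6 FPKM.

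**Figure D2:**
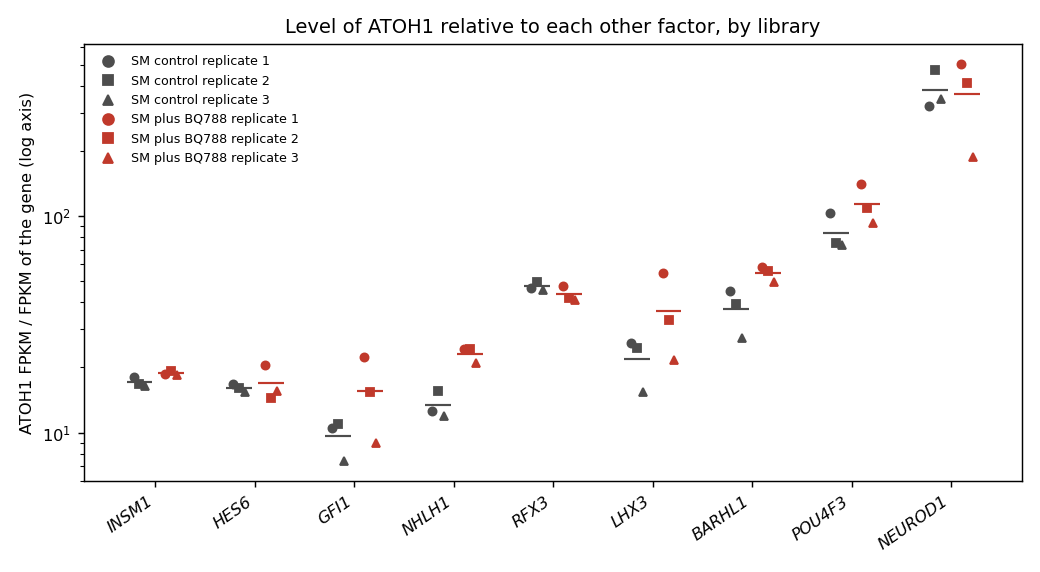
Ratio of the ATOH1 level to the level of each other factor within a library, both in FPKM, on a log axis. Points are libraries as marked and bars are group means. The ratios to NHLH1, BARHL1 and INSM1 exceed every control in each BQ788 library, for INSM1 by a gap within its counting error. The ratio to POU4F3 runs from 73.1 to 140.1 over the 6 libraries.

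Setting the BQ788 group against its SM control gave the differences in transcript level with the inhibitor after SM exposure. NHLH1 was lower with BQ788, and of the 9 members that could be tested it alone passed the threshold over all genes, against a background of 2.99% of genes called in either direction and 2.24% called lower. NHLH1 encodes a bHLH factor of young neurons and nascent hair cells. It was at 12.5, 10.3 and 13.8 FPKM in the controls and at 7.29, 6.18 and 6.42 FPKM in the BQ788 group. Every BQ788 value lay below every control, and the mean was 0.543 of the control mean (log2 fold change -0.79, SE 0.11, limma adjusted p = 0.0327). In a bulk library fewer cells that hold a transcript and less of it per cell cannot be told apart. The NHLH1 call depended on the libraries used, as its adjusted p was 0.123, 0.0979 and 0.110 without SM control replicates 1, 2 and 3, 0.143 and 0.0900 without BQ788 replicates 2 and 3, and 0.0230 without BQ788 replicate 1. Its log2 fold change stayed between -0.89 and -0.70 in these fits, which leave 1 group with 2 libraries. Of all genes tested, 1 passed without SM control replicate 1, 2 or 3 or BQ788 replicate 2, and 21 without BQ788 replicate 3. Loss of a call in those fits is therefore not particular to NHLH1 or to the other genes called here.

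BARHL1 and POU4F3 also had BQ788 values below all controls but did not pass. BARHL1, a homeobox factor that in mouse maintains hair cells, was at 3.52, 4.13 and 5.99 FPKM in the controls and 3.03, 2.69 and 2.71 FPKM in the BQ788 group. Its log2 fold change was -0.52 (SE 0.16, limma adjusted p = 0.133), and -0.34 without SM control replicate 3, its highest library. POU4F3 was at 1.54, 2.15 and 2.23 FPKM in the controls and 1.26, 1.38 and 1.44 FPKM in the BQ788 group. Here the log2 fold change was -0.33, with an SE of 0.12 (limma adjusted p = 0.175). Only 41 to 65 reads lay on POU4F3 in a library, so counting alone gave an error of 12.4% to 15.6%, and with a pseudocount of 0.1 its log2 fold change was -0.49. With NHLH1 these are 3 of the 9 tested members whose groups did not overlap downward, a pattern shown by 14.1% of all genes tested. No tested member did so upward, and the share of all genes tested that did was not computed.

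GFI1 and LHX3 had lower group means in the BQ788 libraries and the largest standard errors of the tested members. GFI1, a zinc finger repressor needed for hair cell survival in mouse, was at 15.0, 14.7 and 22.2 FPKM in the controls and 7.92, 9.80 and 14.9 FPKM with BQ788. LHX3, a LIM-homeodomain factor of hair cells, was at 6.13, 6.54 and 10.6 FPKM in the controls and 3.25, 4.55 and 6.22 FPKM with BQ788. For both genes replicate 3 was the highest of its group, and BQ788 replicate 3 lay within the range of the controls. The log2 fold changes were -0.64 (SE 0.24, limma adjusted p = 0.188) for GFI1 and -0.63 (SE 0.25, limma adjusted p = 0.207) for LHX3. Without BQ788 replicate 3 they were -0.87 and -0.82, and without BQ788 replicate 1 they were -0.46 and -0.43, in neither case past the threshold. Without SM control replicate 3 they were -0.46 and -0.40. Of the alternatives only a replicate block put both past the threshold (limma adjusted p = 0.0297 and 0.0311), and the labels do not say that the numbers pair libraries.

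ATOH1 itself, INSM1, HES6 and RFX3 did not pass, and their groups overlapped. For ATOH1 the log2 fold change was -0.07 with a 95% interval from -0.32 to 0.17 (limma adjusted p = 0.711), and it was 0.02 without BQ788 replicate 3. INSM1, a zinc finger factor expressed in newly formed neurons and endocrine cells, was at 8.73, 9.63 and 9.91 FPKM in the controls and 9.46, 7.84 and 7.28 FPKM in the BQ788 group (-0.19, 95% interval -0.44 to 0.06, limma adjusted p = 0.334). Among the BQ788 libraries ATOH1 and INSM1 were highest in replicate 1 and lowest in replicate 3, the reverse of GFI1 and LHX3. POU4F3 had 41, 43 and 41 reads in BQ788 replicates 1, 2 and 3, too few to order these libraries. HES6, a member of the HES family that counteracts HES1, was at 9.47, 10.1 and 10.6 FPKM in the controls and 8.57, 10.5 and 8.59 FPKM with BQ788 (-0.12, 95% interval -0.34 to 0.10). RFX3, a regulator of cilium genes, was the steadiest at 3.38, 3.25 and 3.59 FPKM in the controls and 3.71, 3.58 and 3.27 FPKM with BQ788 (0.04, 95% interval -0.15 to 0.23). Of the 9 tested members it was the only one whose log2 fold change was above 0.

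NEUROD1, a bHLH factor of the auditory ganglion neurons, was the member left out of the test, with a mean below 1 FPKM. It was at 0.491, 0.343 and 0.470 FPKM in the controls and 0.350, 0.367 and 0.721 FPKM with BQ788, on 13 to 27 reads per library. The groups overlapped, and an exact two-sided permutation test gave p = 0.8, where 3 against 3 libraries cannot give less than 0.1.

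**Figure D3:**
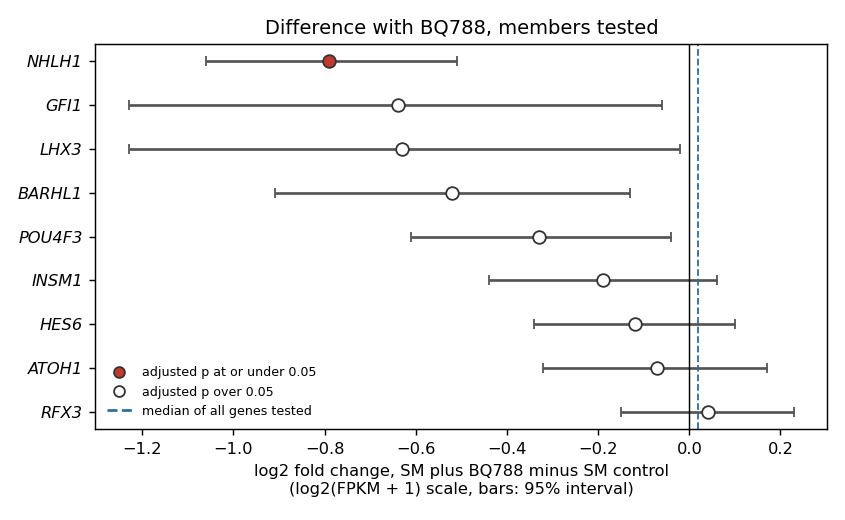
Log2 fold change of the 9 tested factors, SM plus BQ788 minus SM control, on the log2(FPKM + 1) scale, with 95% intervals from limma. The filled point, NHLH1 at -0.79, has an adjusted p at or under 0.05, open points do not, and the dashed line marks the median of all genes tested at 0.02.

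Across the 9 tested members, 8 had a log2 fold change below 0, a sign shared by 46.5% of all genes tested, and the median was -0.33 against 0.02 over all genes tested. An unadjusted p of 0.05 was passed by 5 of the 9 downward, against 11.9% of all genes. These counts describe members named with earlier results known and do not set them apart from other genes. All 9 had their highest control value in SM control replicate 3, as did 37.4% of all genes tested. Of 669 tested genes that the authors assigned to a transcription factor family, 2.84% were called lower, with a median log2 fold change of -0.02.

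On the GRCg7b build the members lie on 9 chromosomes. ATOH1 spans chromosome 4 from 36618981 to 36620518, POU4F3 chromosome 13 from 17459044 to 17461158, GFI1 chromosome 8 from 13869912 to 13880674, and NHLH1 chromosome 25 from 1233014 to 1237636. BARHL1 (7189212 to 7196577) and LHX3 (8652049 to 8658840) share chromosome 17, 1455471 bases apart. INSM1 is on chromosome 3 from 4007050 to 4009271, HES6 on chromosome 9 from 5123334 to 5125988, NEUROD1 on chromosome 7 from 13872477 to 13875154 and RFX3 on chromosome Z from 27168085 to 27299044. The authors assigned 4 members to the bHLH family, 2 to the homeobox family and 2 to the C2H2 zinc finger family, and the lengths used for FPKM run from 1440 bases for HES6 to 10689 for RFX3. HES6 lies inside the span of CAB39, on the opposite strand at 7.99 and 9.09 FPKM in the groups, and also overlaps the MIR1577 row, and whether counting used strand is not given in the sources used here, so the HES6 value is uncertain. Close to it on the same chromosome and strand, LOC107051857 carries a similarity note to HES6 and was at 10.5 ± 1.25 and 11.0 ± 1.54 FPKM. NHLH1 and RFX3 each overlap 1 lncRNA row on the opposite strand with a mean below 0.3 FPKM, and the other 7 members overlap no row.

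Of the 4 ID genes tested, which encode opponents of bHLH factors, 2 fell, where 2.24% of all genes tested were called lower. ID1 fell from 88.1 ± 3.74 to 57.7 ± 3.96 FPKM (log2 fold change -0.60, limma adjusted p = 0.0242) and ID3 from 605.8 ± 12.6 to 404.6 ± 47.9 FPKM (-0.59, limma adjusted p = 0.0361). ID4 did not pass, nor did ID2, whose values of 554.5, 519.1 and 525.9 FPKM in the controls lay above 409.0, 515.4 and 508.4 FPKM in the BQ788 group. The BQ788 values of ID1, ID2 and ID3 lay below all controls, a pattern shown by 14.1% of all genes tested. Like NHLH1, ID1 and ID3 stayed past the threshold when BQ788 replicate 1 was left out, and not when any other library was (adjusted p up to 0.134 and 0.147). The ID3 call was also lost under quantile normalization and without the filter on low values.

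Of 8 tested HES, HEY and related repressors, limma and limma voom each called 0, and 0 had an unadjusted p under 0.05. Over all genes tested, limma called 2.99%. The smallest p belonged to BHLHE41 (-0.11), HES1 (-0.24) and HES4 (0.22). HES5, a Notch target, had the widest spread, at 9.66, 12.3 and 6.27 FPKM in the controls and 16.1, 3.93 and 1.90 FPKM in BQ788 replicates 1, 2 and 3 (-0.69, SE 0.63, limma adjusted p = 0.563). Among the 3 E proteins, TCF3 at 14.7 ± 1.49 and 13.3 ± 1.27 FPKM, TCF12 and TCF4, limma and limma voom called 0. TCF12 alone had an unadjusted p under 0.05 (0.22, limma adjusted p = 0.138).

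**Figure D4:**
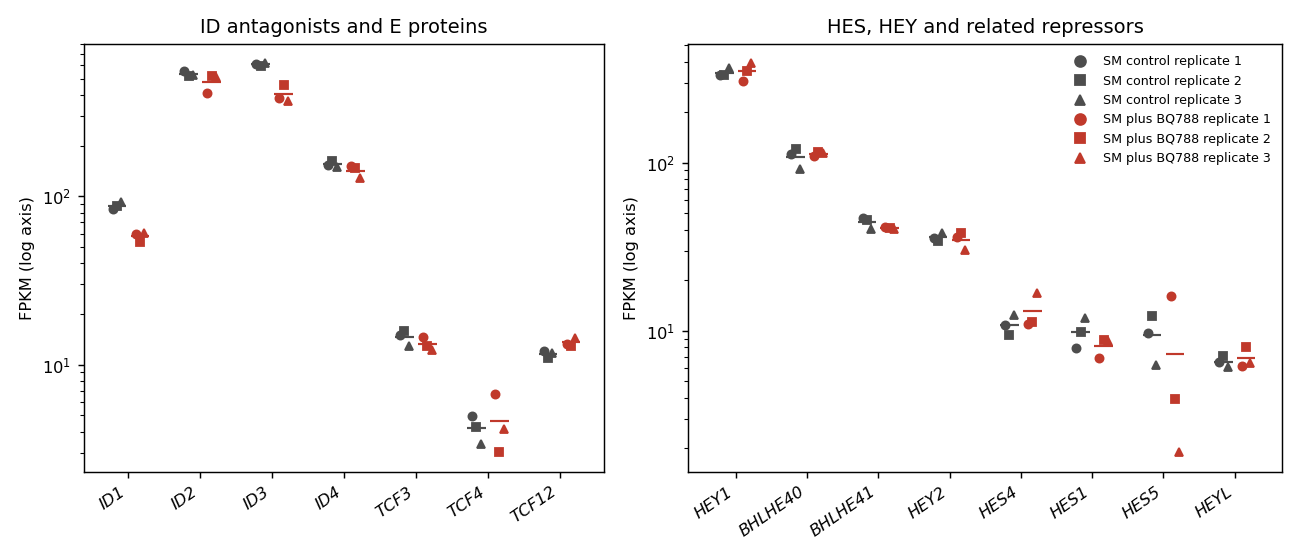
FPKM on a log axis for ID genes and E proteins (left) and for HES, HEY and related repressors (right), with points for libraries as marked and bars for group means. ID1, ID2 and ID3 lie lower in every BQ788 library than in any control, ID2 by a narrow gap, and TCF12 lies higher. HES5 runs from 1.90 to 16.1 FPKM among the BQ788 libraries.

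Genes that act upstream of ATOH1 gave 0 calls among 13 tested in limma and in limma voom, where limma called 2.99% of all genes tested. An unadjusted p under 0.05 was reached by SOX11 (-0.44, limma adjusted p = 0.120) and the coactivator gene EYA1 (0.20, limma adjusted p = 0.137). Of 12 other transcription factors of hair cells and the sensory epithelium, 2 fell, and none rose. Beside these, 2.24% of all genes tested and 2.84% of tested transcription factor genes were called lower. SOX21, a SOX family factor of the chick prosensory epithelium, went from 69.1 ± 4.11 to 50.3 ± 1.17 FPKM (-0.45, limma adjusted p = 0.0294), and TOX, an HMG-box factor, from 9.07 ± 0.0542 to 6.62 ± 0.470 FPKM (-0.40, limma adjusted p = 0.0415). Both calls were lost without the filter on low values and when any library other than BQ788 replicate 1 was left out.

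Downstream, transcripts of early and late hair cell genes were measured in the same libraries. Both limma and limma voom called 0 of 13 early genes, where limma called 2.99% of all genes tested. An unadjusted p under 0.05 was reached by 3, all downward, where 11.9% of all genes tested reached it downward, and the median was -0.04. DLL1, the Notch ligand of nascent hair cells, was at 11.9 and 10.9 FPKM (-0.12). The splicing regulator gene RBM24 (-0.63, limma adjusted p = 0.200), the chemokine receptor gene CXCR4 (-0.24, limma adjusted p = 0.116) and CALB2 (-0.30, limma adjusted p = 0.203) had the smallest p. Of 19 late genes 0 passed in limma, while limma voom called FSCN2 and ESPN. An unadjusted p under 0.05 was reached by 12, of which 11 were lower, beside the 11.9% of all genes tested. The median log2 fold change of the late genes was -0.36, and in 10 of them the BQ788 values lay below all controls, where 14.1% of all genes tested did so. In 1, WHRN, they lay above all controls (0.28, limma adjusted p = 0.198). CALB1, the late gene with the highest level at 517.6 to 832.7 FPKM, overlapped between the groups (-0.07). ESPN, an actin bundler of the hair bundle, was at 12.6, 13.6 and 15.6 FPKM in the controls and 8.03, 9.15 and 10.2 FPKM with BQ788 (-0.56, limma adjusted p = 0.0540). FSCN2, another actin bundler (-0.75, limma adjusted p = 0.0590), came next, then LHFPL5 of the transduction channel complex (-0.47, limma adjusted p = 0.0802). The highest control value was in replicate 3 for 14 of the 19 late genes, as it was for all 9 tested factors and for 37.4% of all genes tested.

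NHLH1, INSM1 and NEUROD1 are also transcribed in neurons, whose processes a peeled epithelium can carry. Of 11 neuron markers measured, 7 were tested and 2 fell, NEFL from 22.6 to 15.6 FPKM (-0.50, limma adjusted p = 0.0415) and NEFM from 4.59 to 2.74 FPKM (-0.58, limma adjusted p = 0.0283). Over all genes tested, limma called 2.99% in either direction and 2.24% lower. The summed level of the 11 was 127.6 to 138.3 FPKM in the controls and 105.9 to 124.8 FPKM with BQ788, of which ISL1, also on the list of hair cell factors, gave 54.3 to 78.9 FPKM. Among the other neuron markers TUBB3 was at 15.9 to 17.9 FPKM, PRPH at 9.48 to 11.1 FPKM and ELAVL4 at 3.99 to 4.34 FPKM, with overlapping groups. DCX was at 2.39, 1.71 and 2.01 FPKM in the controls and lower in every BQ788 library, at 1.51, 0.921 and 1.36 FPKM (-0.43, limma adjusted p = 0.142). None of them passed the threshold. SNAP25 was at 0.431 to 0.784 FPKM, and STMN2, NEUROG1 and POU4F1 were at most at 0.105 FPKM in any library. SOX10, a Schwann cell marker also transcribed in otic epithelium, was at 92.8 to 124.8 FPKM. Of 2 tested Schwann cell markers 0 had even an unadjusted p under 0.05 in limma, and limma voom called 0. The part of neuron RNA in the NHLH1 difference was not tested. Among 7 mesenchyme markers limma and limma voom called 0, with COL3A1 (-0.79) alone at an unadjusted p under 0.05. Among 2 tested melanocyte markers both called 0, with MLANA (-1.04) alone under that unadjusted p. Of 2 tested cartilage markers COL9A1 fell (-1.11, limma adjusted p = 0.0189), and the 4 haemoglobin genes, HBE and HBAD at 0 among them, summed to at most 1.01 FPKM. The calls of FGFR3, NEFL, NEFM and COL9A1 were also lost on leaving out any library except BQ788 replicate 1, with adjusted p up to 0.167, 0.152, 0.135 and 0.0979. Those of FGFR3, NEFL and NEFM were lost without the filter on low values too, and that of FGFR3 without the eBayes trend.

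The genes whose values over the 6 libraries were nearest to those of a factor were found by the root mean square difference of log2(FPKM + 1) values centred on each gene's mean. For ATOH1 these were TRNAU1AP, FAM104A and PIK3R4, at differences of 0.0257, 0.0301 and 0.0308. PIK3R4, for example, was at 15.2, 14.9 and 15.3 FPKM in the controls and 17.3, 13.8 and 12.5 FPKM with BQ788. For POU4F3 they were SERINC2 (0.0523), ERBB3 (0.0529) and ITGA3 (0.0600), and for NHLH1 PRLR (0.0585), ZNF385A (0.0850) and TBXA2R (0.0891). PRLR, which encodes the prolactin receptor, was at 19.7, 16.9 and 19.5 FPKM in the controls and 11.1, 9.42 and 9.80 FPKM with BQ788. With 6 libraries and 11857 genes such nearness describes these values and is no test.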

How the data were processed

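Gene expression was measured by RNA-seq in 6 libraries, grouped and numbered by their titles. Per the labels' protocols, thermolysin (500 µg/ml) freed the epithelium, and NEBNext Ultra II libraries were made from 400 ng of RNA each. The authors deposited FPKM for every gene. The submitters' processing notes name fastp and the GRCg7b build. Aligner, counter and strand setting: not given in the sources used here. FPKM times gene length gave whole multiples of 1 step per library for 100.0% of values above 0 (tolerance 0.01 of a read), from which reads were recovered. A floor of 3 reads is 0.169 to 0.193 FPKM at 1 kb. Floors and counting errors cover counting error only.

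Differences were tested on log2(FPKM + 1) with limma 3.58.1 (R 4.3.3) for genes averaging 1 FPKM or more, with group as the only term, eBayes with trend, two-sided, Benjamini-Hochberg adjusted over all genes tested at 0.05. Fold changes on this scale understate low genes. Exact permutation (scipy 1.17.1) served the member below the filter. Members and gene lists were chosen with earlier results of these data known. From each list the text names genes past the threshold or, where there are none, up to 3 with the smallest p. Other genes were named for their role or after their values were seen, and some listed genes are not reported here. Alternatives were other pseudocounts, filters, scalings, eBayes settings, a replicate block, limma voom on recovered reads and leaving out each library.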

Additional observations from a re-analysis of the deposited data

How the results depend on the processing

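Of 16 alternatives, the 8 members lower with BQ788 and RFX3 above 0 kept their direction in every fit that could test them, except ATOH1, which was at 0.02 once BQ788 replicate 3 was left out and at -0.18 once BQ788 replicate 1 was. NHLH1 passed in 10 of 16 (log2 fold change -0.89 to -0.70). It did not pass without a filter on low values (adjusted p = 0.0571), where 20512 genes were tested, nor when a library other than BQ788 replicate 1 was left out. BARHL1, POU4F3 and RFX3 have no value when the filter is raised to 5 FPKM, and NEUROD1 has one only without a filter (0.04, limma adjusted p = 0.899).

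The count of genes called over all genes moved more. It was 68 (12 higher, 56 lower) without a filter, and 59 higher without the eBayes trend, against 89 higher and 266 lower in the reported fit. Leaving out 1 library gave 1 to 1311 calls (0 to 626 higher, 1 to 685 lower), with 1 call without any SM control library or BQ788 replicate 2, 21 without BQ788 replicate 3 and 1311 without BQ788 replicate 1. The cause was not tested. Median-of-ratios scaling left the calls at 355 (89 higher, 266 lower) and changed no member's call, but it was no separate check. The library totals implied by the FPKM were 0.9484 to 1.061 times the recovered reads. The deposited values thus already carried a scaling other than the read sum.

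With the replicate block 749 genes were called (240 higher, 509 lower), and GFI1 (adjusted p = 0.0297) and LHX3 (adjusted p = 0.0311) passed beside NHLH1 (adjusted p = 0.0282). The labels do not say that numbers pair libraries. Deviations from the group means correlated at 0.5, 0.0744 and 0.569 between same-numbered libraries 1, 2 and 3 across genes. Between libraries of different numbers the correlations ran from -0.53 to 0.127. SM control replicate 2 correlated at 0.118 with BQ788 replicate 1, but its root mean square difference was smaller from BQ788 replicate 2 (0.32 against 0.343). With 3 libraries per group these values cannot decide whether the numbers mark pairs, and the reported fit, following the labels, has no block. POU4F3 and NEUROD1 are limited by depth.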

Other observations

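On the list of other transcription factors of hair cells and the sensory epithelium, 13 were below the filter of 1 FPKM. Several of these had BQ788 values under all controls, and were named after their values were seen. The share of all genes below the filter that did so was not computed. NHLH2, the close relative of NHLH1, was at 0.417, 0.448 and 0.536 FPKM in the controls and 0.146, 0.175 and 0.119 FPKM with BQ788, on 5 to 23 reads per library (log2 fold change -0.35, limma adjusted p = 0.0504 when genes were not filtered). MYT1, a zinc finger factor of neural and endocrine cells, was at 0.937, 0.842 and 1.14 FPKM in the controls and 0.448, 0.830 and 0.695 FPKM with BQ788 (limma adjusted p = 0.321 in the same fit). RFX4, a relative of RFX3, was at 0.321, 0.207 and 0.273 FPKM in the controls and 0.153, 0.128 and 0.140 FPKM with BQ788, on 8 to 21 reads (-0.15, limma adjusted p = 0.142). ST18, a relative of MYT1, was at 0.171, 0.0712 and 0.161 FPKM against 0.00900, 0.0471 and 0.0309 FPKM, on 1 to 19 reads (limma adjusted p = 0.162). RFX2, also a relative of RFX3, had BQ788 values above all controls, at 0.572, 0.537 and 0.727 FPKM against 0.765, 0.912 and 1.57 FPKM (limma adjusted p = 0.317). None of these 5 passed the threshold.

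The paralogs POU4F1 and LHX4 of POU4F3 and LHX3 had at most 6 and 2 reads in any library, and BARHL2 and POU4F2 were at 0 in all 6.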
